A study of Mus musculus with 2 samples.

Results

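The genes described here are 10 genes of the contractile and mesenchymal cytoskeleton, of 43346 genes in the tables: Acta2, Actg2, Tagln, Vim, Cnn1, Myl9, Tpm1, Tpm2, Thy1 and S100a4. They were chosen by function and from earlier values of these same libraries, so their levels and differences are given as descriptions with no test. ES-E14 is a stem cell line from a male mouse embryo of strain 129/Ola, and its total RNA was measured in 1 group of 2 libraries, numbered as biological replicates 1 and 2. No treatment, genetic change or time point is named for either library, and both are labelled with 1 source sample, so their spread may be a technical one. All 10 genes were found by gene identifier. The stem cell label was checked against 10 pluripotency markers, Pou5f1 and Dppa5a among them, and each reached 1 TPM in replicate 1 and in replicate 2. TPM is a level per transcript corrected for transcript length and shared over every row of a library's table. Values are given for replicate 1 and then replicate 2.

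As background, contractile cells slide myosin along actin filaments, and smooth muscle cells and myofibroblasts use their own actins, tropomyosins and regulatory proteins for this. Many of these genes are targets of serum response factor (SRF), which binds a site called the CArG box together with cofactors of the myocardin family. Vimentin filaments mark mesenchymal cells, and embryonic stem cell colonies are epithelial, held together by E-cadherin.

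In replicate 2, 9 of the 10 genes were higher than in replicate 1, and Thy1 was lower. Summed over the 10 genes, the level was 283.8 TPM in replicate 1 and 782.0 TPM in replicate 2, or 0.0644% and 0.168% of all expected counts. Both libraries had at least 1 TPM of 8 of the 10, against 46.3% of the 21474 protein-coding genes. The other 2, Actg2 and S100a4, passed 1 TPM in replicate 2 alone. By mean level the order was Vim, Tpm1, Tagln, Acta2, Tpm2, Myl9, Cnn1, Thy1, S100a4 and Actg2. Neighbours in that order differed in mean by less than 1 SD of the higher gene, taken over the 2 libraries, except Myl9 against Cnn1 and Thy1 against S100a4.

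**Figure D1:**
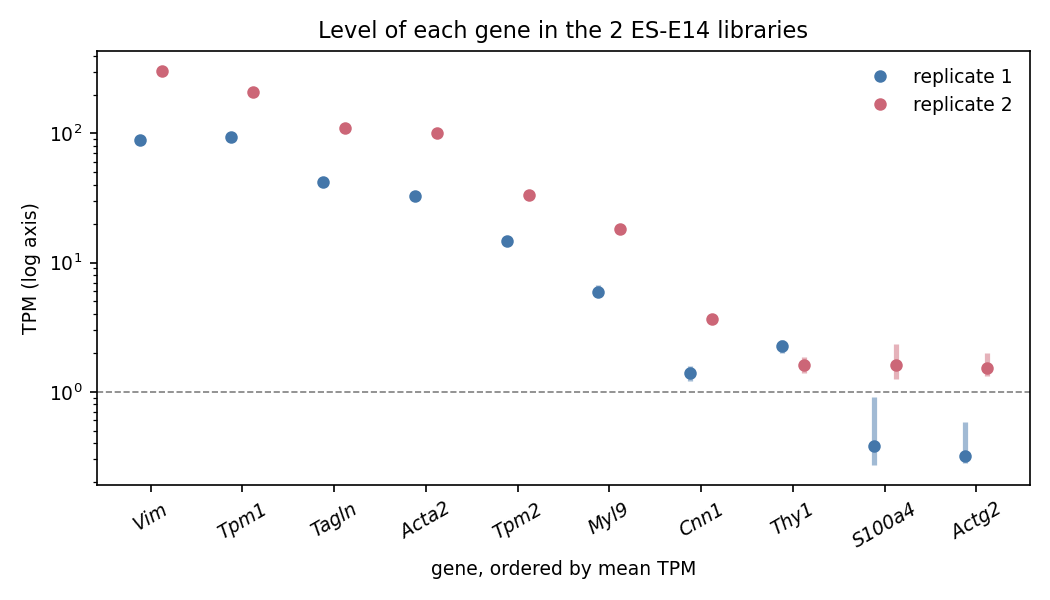
TPM of each gene (log axis) in replicate 1 (blue) and replicate 2 (red), with bars for the deposited interval bounds and a dashed line at 1 TPM. Every gene but Thy1 stands higher in replicate 2, and no gene's intervals overlap.

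The 2 smooth muscle actins were abundant and rare in turn. Acta2 (ENSMUSG00000035783.8; chromosome 19, 34241090 to 34255590 on the minus strand, GRCm38, the assembly also called mm10) encodes smooth muscle alpha-actin, the defining filament of myofibroblasts. It stood at 33.0 and 100.2 TPM, from 4170 and 12035 expected counts, with a mean of 66.6 ± 47.5 TPM (SD, n = 2). The 2 libraries were thus 3.03-fold apart in TPM, and the deposited intervals, 31.8 to 33.8 and 97.8 to 101.4 TPM, did not overlap. Actg2 (ENSMUSG00000059430.10; chromosome 6, 83512905 to 83536265) encodes the gamma-actin of enteric smooth muscle. It was near the lower end of detection, at 0.32 and 1.53 TPM from 29 and 119 counts. Both actins were higher in replicate 2, at levels far apart. The coding sequence of Acta2 is 84.2% identical to that of Actg2, 85.4% to Acta1 and 82.8% to Actb, with longest identical runs of 29, 29 and 47 bases. The expected counts of all 10 genes were whole numbers in both libraries to the 2 decimals deposited, with no further tolerance, as were those of 84.0% of the genes whose mean reached 1 TPM.

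Tagln, Myl9 and Cnn1 bind or regulate the contractile filaments. Tagln (ENSMUSG00000032085.4; chromosome 9, 45929619 to 45936058) encodes transgelin, or SM22-alpha, an actin-bundling protein and an early marker of smooth muscle. It stood at 42.3 and 109.8 TPM, 2.60-fold apart, from 4694 and 11602 counts. It overlaps Pcsk7 on the opposite strand, which stood at 5.53 and 4.19 TPM and so was the lower of the pair in both libraries. Myl9 (ENSMUSG00000067818.6; chromosome 2, 156775420 to 156781658) encodes the regulatory myosin light chain whose phosphorylation starts contraction. It stood at 5.89 and 18.0 TPM, from 445 and 1251 counts, 3.06-fold apart. Cnn1 (ENSMUSG00000001349.4; chromosome 9, 22099216 to 22109630), for calponin 1, which restrains myosin on actin in differentiated smooth muscle, was at 1.4 and 3.63 TPM from 240 and 594 counts. For each of these 3 genes replicate 2 was the higher library and the deposited intervals were apart.

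The tropomyosins are coiled-coil proteins that lie along the actin filament and set which proteins can reach it. Tpm1 (ENSMUSG00000032366.11; chromosome 9, 67022590 to 67049406) stood at 94.6 and 210.4 TPM (152.5 ± 81.9, SD, n = 2), and Tpm2 (ENSMUSG00000028464.12; chromosome 4, 43514711 to 43523765) at 14.8 and 33.1 TPM, with intervals apart for both. Their ratios were close, 2.22 and 2.25, although Tpm1 was several times the more abundant in each library. The coding sequences of their leading models are 76.6% identical.

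Vim (ENSMUSG00000026728.5; chromosome 2, 13573927 to 13582826) encodes vimentin, the intermediate filament of mesenchymal cells, and had the highest mean of the 10 and the largest difference in log2(TPM + 1). It stood at 88.9 and 301.9 TPM (195.4 ± 150.6, SD, n = 2), from 7503 and 27797 counts. The 2 surface and calcium-binding markers of fibroblasts did not move together. S100a4 (ENSMUSG00000001020.7; chromosome 3, 90603771 to 90606045), a small calcium-binding protein also known as fibroblast-specific protein, was at 0.38 and 1.6 TPM, from only 10 and 40 counts. As CPM, the count scaled to library depth, these were 0.232 (95% Wilson interval 0.126 to 0.427) and 0.878 (0.645 to 1.20), an interval for counting error only. Thy1 (ENSMUSG00000032011.4; chromosome 9, 44043384 to 44048579), a glycoprotein of the surface of T cells, neurons and many fibroblasts, was at 2.27 and 1.62 TPM from 278 and 189 counts. It was the only one of the 10 that was lower in replicate 2.

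Differences between the libraries are given as log2(TPM + 1) in replicate 2 minus replicate 1, a scale that understates those of low genes. They were 1.75 for Vim, 1.57 for Acta2, 1.47 for Myl9, 1.36 for Tagln, 1.15 for Tpm1 and 1.12 for Tpm2. Just under a difference of 1, which is 2-fold, were Cnn1 at 0.95, Actg2 at 0.94 and S100a4 at 0.91, while Thy1 stood at -0.32. So 6 of the 10 were at least 2-fold higher and 0 were 2-fold lower. Of the 11382 named genes whose mean reached 1 TPM, 3.24% were 2-fold higher in replicate 2 and 0.835% lower. Of those 11382 genes 8 are members, since Actg2 and S100a4 have means below 1 TPM, and all 6 are among these 8. The median over the 10 was 1.13, beside 0.23 over the protein-coding genes among them. As these genes were proposed with such differences known, the share is a setting for the values and nothing is read from it. With 1 library on each side no p-value can be had. Deposited intervals were apart for 10 of 10, but also for 62.8% of the 11382 genes.

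**Figure D2:**
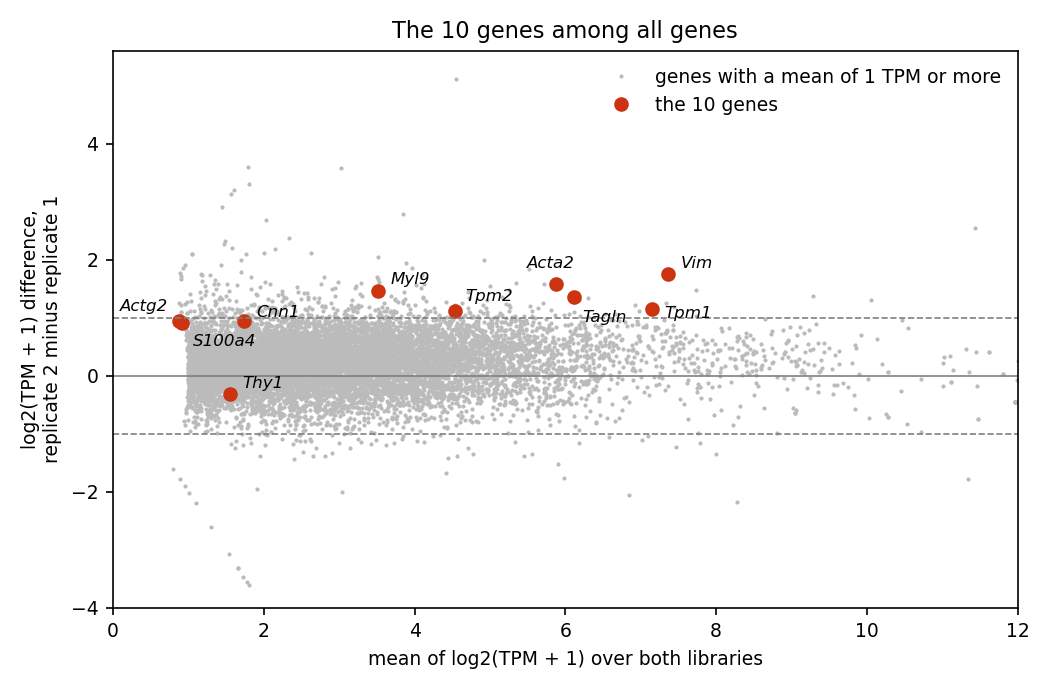
Each grey point is 1 of the 11382 genes, placed by its mean log2(TPM + 1) and its difference, replicate 2 minus replicate 1; red points are the 10 genes and dashed lines mark 2-fold. Vim, Acta2, Myl9 and Tagln each have a larger difference than at least 99.1% of genes, and Thy1 lies below 0; 38 genes lie outside the axes.

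The direction held on every scale tried for each of the 10 genes, but the number past 2-fold did not. With TMM-scaled counts, which ignore length and set the bulk of genes equal between libraries, 5 of the 10 were 2-fold higher, against 1.77% of genes. Of the 11382 genes, 201 were then 2-fold higher and 318 lower. Tpm1 and Tpm2 then stood at 0.91 and 0.86, and Actg2 reached 1.03. With a pseudocount of 0.1, which compresses low values less, 9 of the 10 passed, against 6.8% of genes. Actg2 was then at 1.96 and S100a4 at 1.82, so the values of these low genes changed most with the scale. On that scale both exceeded Vim, at 1.76. Vim had the widest difference on the log2(TPM + 1), FPKM and count scales, from 1.61 to 1.75. TPM was also rescaled to a common sum over protein-coding genes, leaving out those of the mitochondrial genome. On that scale Vim was at 1.47, with Actg2 slightly above it, and Thy1 was at -0.70. Of the 11382 genes, 292 were 2-fold higher on it and 403 lower.

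The libraries also differed in their makeup. Protein-coding genes held 19.4% of TPM in replicate 1 and 23.8% in replicate 2, and 2 noncoding models that collect ribosomal RNA reads, Gm26917 and Gm42418, took 26.4% and 16.4% of the expected counts. Depth was 43163253 and 45573478 expected counts. The differences also went with GC content: the median over protein-coding genes was 0.40 in the lowest GC decile and -0.0039 in the highest. The leading transcripts of the 10 genes lay in deciles 5 to 9, whose medians were 0.06 to 0.26. With the median of its own decile taken off, Vim stood at 1.58, Myl9 at 1.41, Acta2 at 1.31, Tagln at 1.14, Tpm2 at 1.05 and Tpm1 at 0.88. The part of these library properties in the differences was not tested beyond those values.

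**Figure D3:**
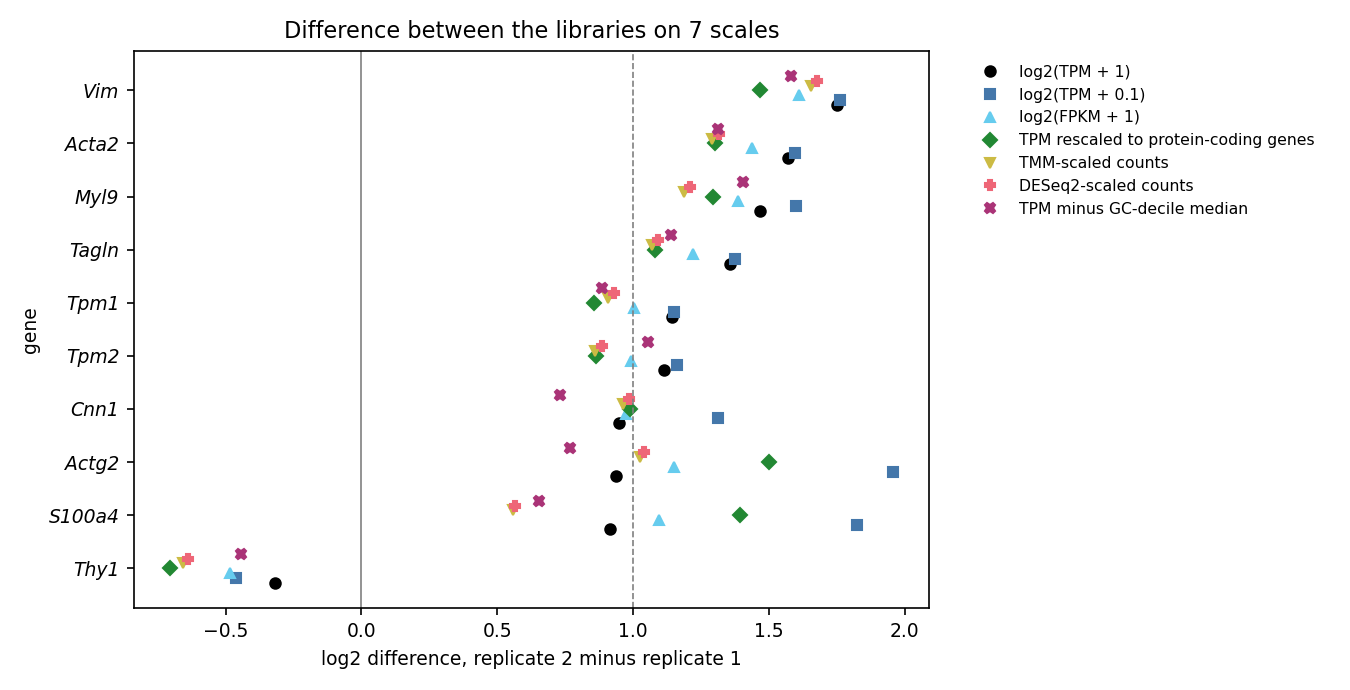
Difference of each gene, replicate 2 minus replicate 1 in log2 units, on 7 scales marked by symbol; the solid line is 0 and the dashed line 2-fold. Vim, Acta2, Myl9 and Tagln are right of the dashed line on all 7, while Tpm1, Tpm2, Cnn1, Actg2 and S100a4 lie on both sides of it.

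Tpm1 makes many proteins from 1 gene, and its transcripts did not differ alike. Early in the message the gene uses either exon 2a, which is typical of smooth muscle, or exon 2b, used in most other cells. At the end it mostly uses exon 9a, typical of striated muscle, or exon 9d, used in smooth muscle and non-muscle cells. The coding parts of these exons are shown because summed transcript levels, given below, differed unequally between libraries by exon. Capitals mark bases that differ between the members of a pair when they are laid side by side without gaps. Exons 2a (chr9:67048124-67048249) and 2b (chr9:67047786-67047911), GENCODE M21 models on GRCm38, minus strand, are of equal length and 47.6% identical.
Exon 2a: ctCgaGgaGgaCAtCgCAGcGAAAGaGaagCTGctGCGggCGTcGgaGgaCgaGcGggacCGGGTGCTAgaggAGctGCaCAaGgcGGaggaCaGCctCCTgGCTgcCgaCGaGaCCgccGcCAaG
Exon 2b: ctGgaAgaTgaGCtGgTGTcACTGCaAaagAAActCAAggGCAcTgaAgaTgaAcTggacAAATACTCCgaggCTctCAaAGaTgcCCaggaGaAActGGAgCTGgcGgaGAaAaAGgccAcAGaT
The coding parts of exons 9a (chr9:67029663-67029742) and 9d (chr9:67023362-67023441) are 43.8% identical, taken from Tpm1-201 and Tpm1-213.
Exon 9a: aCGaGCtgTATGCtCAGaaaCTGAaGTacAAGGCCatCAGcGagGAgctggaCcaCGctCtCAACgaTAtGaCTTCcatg
Exon 9d: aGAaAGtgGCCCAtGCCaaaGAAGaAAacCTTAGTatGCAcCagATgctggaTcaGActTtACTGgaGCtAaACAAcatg

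Protein-coding Tpm1 transcripts with exon 2a summed to 7.66 and 37.7 TPM, 4.93-fold apart, and those with exon 2b to 53.1 and 102.0 TPM, 1.92-fold apart. Exon 2a was thus in 10.7% and 23.4% of coding Tpm1 output, and exon 2b in 73.8% and 63.1%. Nearly all exon 2a signal came from Tpm1-215, at 7.16 and 37.7 TPM, whose deposited intervals were 4.90 to 7.97 and 34.5 to 39.6 TPM. One model, Tpm1-202, holds both exons and is counted in both sums, at 0.5 and 0 TPM. At the 3′ end, transcripts with exon 9d summed to 42.7 and 121.2 TPM, 2.84-fold apart, and those with exon 9a to 26.3 and 36.1 TPM, 1.37-fold apart. The share with exon 9d was 59.3% and 75.0%. Tpm1-205, at 21.4 and 23.3 TPM, held most of the exon 9a sum and is also in the exon 2b sum. The next exon 9a model, Tpm1-201, stood at 4.47 and 11.25 TPM, 2.52-fold apart, near the 2.54 of Tpm1-213. Its intervals, 3.90 to 5.04 and 10.3 to 12.1 TPM, did not overlap. So the low ratio of exon 9a rests mainly on Tpm1-205.

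The striated-type model Tpm1-205, which uses exon 9a, was close between libraries, at 21.4 and 23.3 TPM with overlapping intervals of 18.6 to 22.8 and 20.5 to 25.7 TPM. Its share of Tpm1 output was 22.7% and 11.1%. The most abundant model in both libraries was Tpm1-213, with exons 2b and 9d, at 23.7 and 60.2 TPM, or 26.8% ± 2.54 of the gene's output (SD, n = 2). Long tropomyosins, of 284 residues in Tpm1-213, start at the first promoter, and short ones, of 248 residues in Tpm1-211, at a start within the gene. Coding transcripts with the first coding exon of the long form summed to 60.2 and 139.7 TPM, and those of the short form to 11.6 and 21.8 TPM. The short form was thus 16.2% and 13.5% of coding output, a smaller change in share than that of exon 2a. Of 21 Tpm1 models 16 had counts. The fragment model Tpm1-219, which is not coding, stood at 10.9 and 34.0 TPM.

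Tpm2 had 1 dominant transcript. Tpm2-203 took 93.4% ± 0.431 of Tpm2 output (SD, n = 2). It joins the upstream exon 6 to the distal last exon, the arrangement known from smooth muscle and fibroblasts. Coding transcripts with the proximal last exon, known from skeletal muscle, summed to 0.47 and 1.63 TPM, or 3.31% and 4.99%. The makeup of Tpm2 was therefore much the same in both libraries while its level was not.

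**Figure D4:**
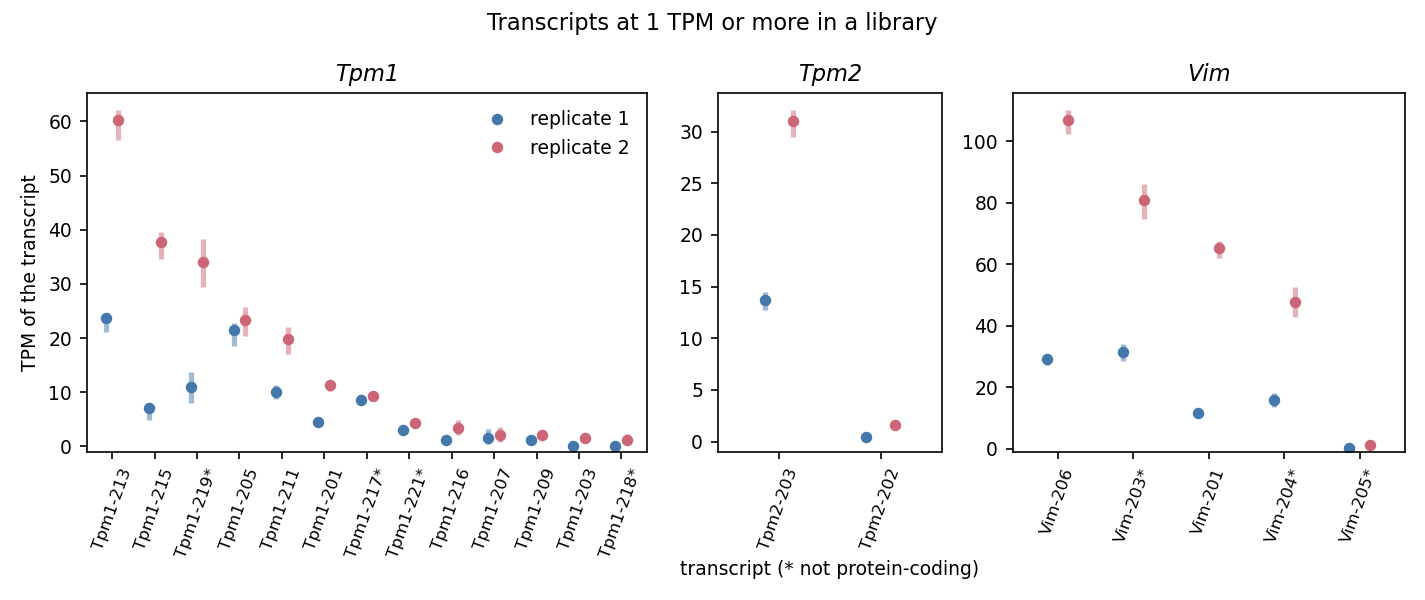
TPM of each transcript at 1 TPM or more in a library, for Tpm1, Tpm2 and Vim, in replicate 1 (blue) and replicate 2 (red) with the deposited interval bounds; an asterisk marks models that are not protein-coding. Tpm1-205 has overlapping intervals while Tpm1-213 and Tpm1-215 are apart, and all 4 main Vim models are higher in replicate 2.

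Vim output was divided among full and partial models. The protein-coding models Vim-206 and Vim-201 stood at 29.2 and 106.7 TPM and at 11.8 and 65.1 TPM. The retained-intron models Vim-203 and Vim-204 stood at 31.5 and 80.8 TPM and at 16.0 and 47.8 TPM. Protein-coding models together were 41.1 and 172.2 TPM, 4.19-fold apart, and the others 47.8 and 129.8 TPM, 2.71-fold apart. The coding share was 46.2% in replicate 1 and 57.0% in replicate 2, so the ratio of the coding models was larger than the 3.40 of the whole gene. Vim-206 has 8 exons and encodes 427 residues, against 9 exons and 466 residues for Vim-201. These partial models overlap the full ones, so the division of reads between them is an estimate.

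The remaining genes had simple transcript patterns, except Actg2 and S100a4. Acta2, Tagln, Cnn1 and Thy1 each had 1 model in the tables. Myl9-201 took 100% and 95.8% of Myl9 output. Actg2-201 took 100% and 56.4% of Actg2 output, from 29 and 75.1 counts, and the rest in replicate 2 lay on Actg2-204 (23.6%) and Actg2-202 (19.9%). S100a4-201 took 82.9% and 100% of S100a4 output. The intervals of Actg2-201 overlapped, 0.132 to 0.389 and 0.339 to 1.27 TPM. By the deposited posterior means its share was 60.4% and 49.6%, and that of S100a4-201 46.9% and 87.1%, so the shares of these low genes depend on the estimate.

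Start-site windows of RefSeq, from 250 bases before to 50 after the start (GRCm38.p6), were at hand for 7 of the 10 genes, and Actg2, Tagln and Thy1 were not matched. They were searched on both strands for the CArG box, which is CC, then 6 bases of A or T, then GG. Only the Myl9 window held one, beside 1.63% of all 32851 windows. A looser form, with 1 of the 6 inner bases G or C, was in the Acta2 and Myl9 windows, beside 8.50% of all windows. The stretches of 30 bases around the matches are shown for these 2 genes because their windows hold one, with the 10 matched bases in capitals.
Myl9, chr2:156775293-156775322, plus strand: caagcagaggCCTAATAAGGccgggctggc
Myl9, chr2:156775355-156775384, plus strand: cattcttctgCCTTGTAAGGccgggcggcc
Acta2, chr19:34255438-34255467, minus strand: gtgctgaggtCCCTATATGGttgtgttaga
Acta2, chr19:34255388-34255417, minus strand: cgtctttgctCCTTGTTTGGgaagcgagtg
The first Myl9 line is the exact box, at position -161 from the RefSeq start, and the others are the looser form, at -99, -84 and -34. The Acta2 stretches overlap an annotated exon of the GENCODE gene, which starts further upstream than the RefSeq one. GGAATG, a core letter string for TEAD factors, was in the windows of Acta2 and Tpm1, beside 14.7% of all windows. TATAAA was in those of Vim and S100a4, at -32 and -31 from the RefSeq start, beside 13.6% of all windows. The stretches around the GGAATG matches and the Vim TATAAA also overlap an annotated exon of their GENCODE gene, while that of S100a4 does not. A match is a description of letters and not of a bound site, and no match says only that the letters are not in this window.

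Paralogs of the 10 genes include the forms that most cells express and those of striated muscle. Of 19 paralogs 7 passed 2-fold, all of them upward in replicate 2, beside 3.24% of the 11382 genes. Their median was 0.58, beside 0.23 for protein-coding genes whose mean reached 1 TPM. With TMM-scaled counts 3 of 19 did, beside 1.77% of genes. The cytoplasmic actins Actb (762.9 and 1240.1 TPM) and Actg1 (328.2 and 542.5 TPM) had differences of 0.70 and 0.72, less than the 1.57 of Acta2. The sarcomeric actins went apart, Acta1 at 10.2 and 7.49 TPM and Actc1 at 0.31 and 2.18 TPM. Tpm4 stood at 14.1 and 33.9 TPM, a difference of 1.21, and Tpm3 at 46.8 and 69.6 TPM, a difference of 0.56. The non-muscle calponins Cnn2 (18.1 and 37.6 TPM) and Cnn3 (24.9 and 54.8 TPM) were both far above Cnn1 in level, and their differences of 1.02 and 1.11 were of like size. Among the S100 genes, S100a10 (29.3 and 89.9 TPM), S100a6 (46.6 and 100.6 TPM) and S100a11 (2.73 and 8.6 TPM) passed 2-fold, all of them at higher levels than S100a4.

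Of 20 genes of the remaining smooth muscle apparatus, 9 reached 1 TPM in both libraries, and genes below that have little room to pass 2-fold in log2(TPM + 1). On that scale 1 of the 20 was 2-fold higher and 0 lower, beside 3.24% and 0.835% of the 11382 genes. The median was 0.14 on the TPM scale beside 0.23 for protein-coding genes, or 0.15 beside 0.02 with TMM-scaled counts. With a pseudocount of 0.1, 3 of the 20 were 2-fold higher, beside 6.8% of genes. The gene that passed on the log2(TPM + 1) scale was Cald1, for caldesmon, which binds actin and tropomyosin (11.7 and 27.6 TPM). The myosin light chain Myl6 was at 155.6 and 228.2 TPM and the muscle intermediate filament gene Des at 2.13 and 4.76 TPM. Myh11, the smooth muscle myosin heavy chain, was at 0.05 and 0.18 TPM from 25 and 86 counts. Of 18 actomyosin and adhesion genes, each at or above 1 TPM throughout, 1 was 2-fold higher, Zyx for zyxin at 3.63 and 9.71 TPM, with a median of 0.57, or 0.32 with TMM-scaled counts. With a pseudocount of 0.1, 2 were.

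Of 18 genes for SRF, its cofactors and TGF-beta signalling, 2 were 2-fold higher and 0 lower, with a median of 0.33. Over the 11382 genes 3.24% were 2-fold higher and 0.835% lower, and the protein-coding median was 0.23. With TMM-scaled counts 1 of the 18 was higher, beside 1.77% of genes. With a pseudocount of 0.1, 4 were, beside 6.8%. Srf itself was close between the libraries, at 6.29 and 6.55 TPM, and its cofactor genes Mrtfa (3.19 and 3.96 TPM) and Mrtfb (1.6 and 2.21 TPM) differed little. Myocd, the smooth muscle cofactor, had 12 and 33 counts and 0.1 TPM in each. Fhl2, for an adaptor protein and SRF target, passed on both scales (2.19 and 6.36 TPM). Ccn1, for a secreted matrix protein, stood at 22.3 and 43.9 TPM, just under 2-fold apart.

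Markers of cell types that also make these proteins differed between the libraries to differing degrees. Many of them lie below 1 TPM, where a pseudocount of 1 leaves little room to pass 2-fold, so the counts with a pseudocount of 0.1, an alternative added after seeing the data, are given too. Over the 11382 genes the shares 2-fold higher were 3.24% by TPM, 1.77% with TMM-scaled counts and 6.8% with a pseudocount of 0.1. The median over protein-coding genes was 0.23 by TPM and 0.02 with TMM-scaled counts. Of 18 fibroblast markers 6 were 2-fold higher and 0 lower, with a median of 0.59. With TMM-scaled counts 8 were, with a median of 0.86, and with a pseudocount of 0.1, 10 were. Their summed level was 113.5 and 199.6 TPM. Fibrillar collagens led the differences, with Col5a2 at 0.61 and 9.37 TPM, Col3a1 at 1.21 and 10.5 TPM and Col1a1 at 7.21 and 28.8 TPM. Sparc, a matrix protein made by many embryonic cells, led the level at 89.5 and 113.5 TPM. The fibroblast markers Lum and Fap had 0 counts in both libraries, and Dcn had 8 and 24. Of 8 pericyte and smooth muscle markers 0 were 2-fold apart by TPM and 1, Notch3, was lower with TMM-scaled counts. With a pseudocount of 0.1, 2 were higher. The list summed to 16.6 and 13.6 TPM, most of it Notch3 (14.1 and 8.05 TPM). Rgs5, a pericyte marker, had 2 and 38 counts. Of 11 endoderm markers 4 were 2-fold higher, with a median of 0.82, or 7 and 1.19 with TMM-scaled counts, among them the basement membrane collagens Col4a1 (14.9 and 42.1 TPM) and Col4a2 (7.81 and 22.9 TPM). With a pseudocount of 0.1, 9 of the 11 were. The most abundant of the list, the laminin gene Lamb1, was slightly lower in replicate 2, at 59.9 and 56.7 TPM, and Lama1 stood at 21.8 and 25.5 TPM, or at -0.07 with TMM-scaled counts. Striated muscle markers had 0 of 10 past 2-fold by TPM, 1 (Tnnt3) with TMM-scaled counts and 4 with a pseudocount of 0.1, and summed to 4.73 and 9.88 TPM. The most abundant was Ttn, for titin, at 1.98 and 4.61 TPM from 12556 and 27787 counts, a difference of 0.91, and Myod1 had 1 count in each library. Pdgfra is in both the fibroblast and the endoderm list, and the pericyte list shares Myh11 and Des with the contractile list and Myocd with the SRF list. In bulk RNA more cells of a type and more RNA per cell cannot be told apart. The part of such cells in the differences of the 10 genes was not tested.

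**Figure D5:**
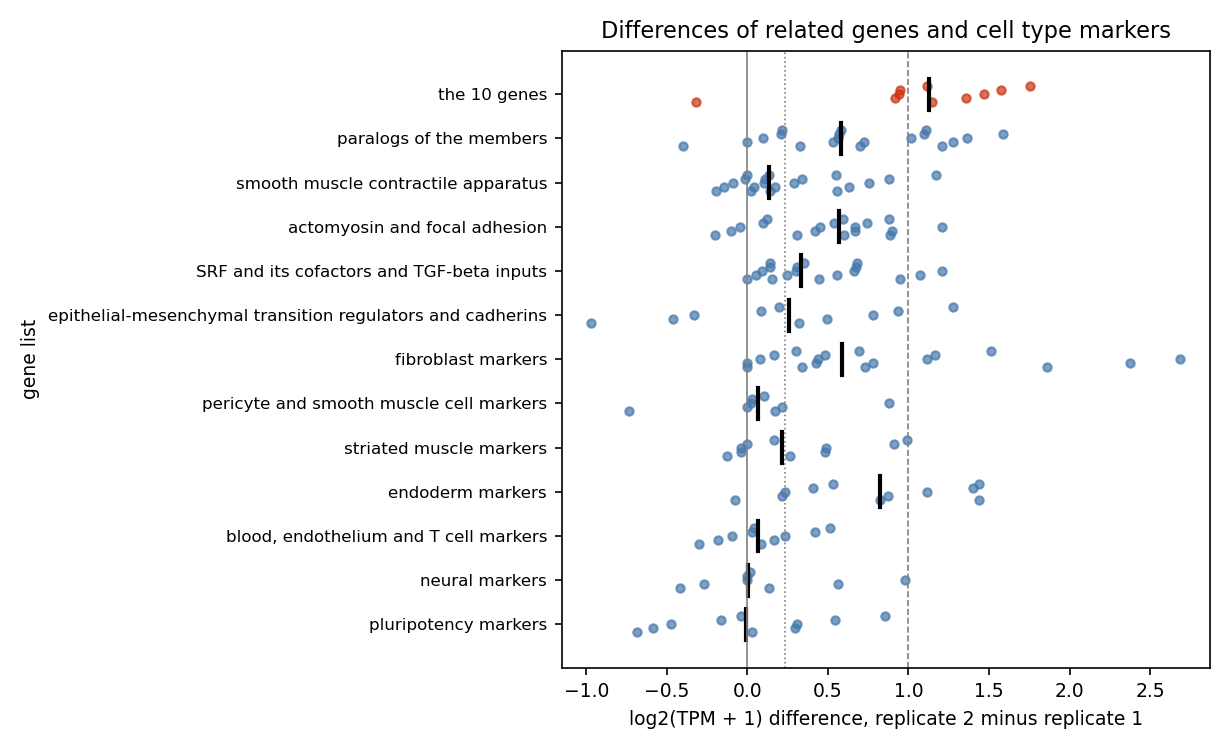
Difference of each gene of 13 lists, replicate 2 minus replicate 1 in log2(TPM + 1); the 10 genes are red, black bars are list medians, and vertical lines mark 0 (solid), the median of the 11382 genes (dotted) and 2-fold (dashed). The median of the 10 genes, 1.13, is the highest of the 13 lists on this scale, followed by endoderm markers at 0.82, which with TMM-scaled counts stood at 1.19 beside 0.99 for the 10 genes, and with a pseudocount of 0.1 at 1.54 beside 1.49.

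Thy1 is also carried by T cells and neurons. Of 10 blood, endothelium and T cell markers, 3 reached 1 TPM in both libraries, so few could pass 2-fold in log2(TPM + 1), and 0 did. With TMM-scaled counts 1 was higher (Cdh5, an endothelial cadherin, at 0.03 and 0.47 TPM), and with a pseudocount of 0.1, 2 were. Over the 11382 genes the shares higher on these scales were 1.77% and 6.8%. The T cell gene Cd3e had 31 and 51 counts, and Cd3g had 0 and 4. The 3 markers of this list that reached 1 TPM in both libraries were each lower in replicate 2, by TPM and with TMM-scaled counts. The other 7 of the list were higher. Neural markers had 0 of 8 past 2-fold by TPM, or 1 higher with a pseudocount of 0.1. Tubb3, a neuronal tubulin, stood at 13.3 and 27.1 TPM and Nes at 4.28 and 6.8 TPM, both above Thy1 in level. By TPM 4 of the 8 were higher and 2 lower in replicate 2, with a median of 0.0066. With TMM-scaled counts 3 were higher and 5 lower, with a median of -0.10. On the rescaled TPM scale 1 of the 8 was at least 2-fold lower. Of 10 pluripotency markers 0 were 2-fold apart, and their median was -0.0064, or -0.30 with TMM-scaled counts. Nanog stood at 17.2 and 31.9 TPM, and the Nodal co-receptor gene Tdgf1 had 318.4 and 198.0 TPM. The part of any of these cells in the value of Thy1 was not tested.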

How the data were processed

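Total RNA-seq tables of 2 ES-E14 libraries were used. Per the deposited text file, the tables use mm10 and annotation M4. Names of the aligner and of the counting tool were not given in the sources used here. Per the file headers the authors deposited, for each gene and transcript, an expected count, TPM, FPKM, posterior mean and interval bounds (used as signal values, whose level was not given) and the percent of a gene's output per transcript. The use of strand in counting was likewise not given in these sources.

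Symbols and gene models came from GENCODE M21 on GRCm38, matched by identifier without version (42462 of 43346 genes). One S100a4 transcript of M4 belongs to Gm42674 in M21 and was kept with S100a4, as deposited. Left out were 97 spike-in rows, at 0 counts, and 26248 rows that have only a number for a name. Expected counts were rounded for scaling factors and Wilson intervals only. A pseudocount of 1 was added before log2, and 2-fold means a difference of 1. Scaling used TMM factors of edgeR 4.0.16 and size factors of DESeq2 1.42.0 in R 4.3.3, tested on simulated data. Other steps used Python 3.11.15, pandas 2.3.3, scipy 1.17.1, matplotlib 3.10.9 and Biopython 1.88.

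The 10 genes and the 13 lists were chosen with earlier results of these data known. The rule named all 10, their transcripts at 10% or more of output in a library (at most 4), paralogs, and from each list the 2 highest and the 2 with the largest differences; other genes and transcripts were named after their values were seen. Alternatives were TPM limits of 0.5 and 5, posterior means, FPKM, rescaled TPM, TMM and DESeq2 scaling, a pseudocount of 0.1, GC deciles, a count minimum of 50, and each library alone. Values of 1 gene of these lists are not reported here.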

Additional observations from a re-analysis of the deposited data

Results flagged for a closer look

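In the gene tables, 26248 rows have only a number for a name and entered no value above. Replicate 2 had 15 expected counts on them, over the limit of 3 that goes with a count of 0, and replicate 1 had 1.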

How the results depend on the processing

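At least 1 TPM in both libraries was found for 8 of the 10 genes; the number was 6 at a limit of 5 TPM, 10 with rescaled TPM, and 10 in replicate 2 alone against 8 in replicate 1 alone. The number at least 2-fold higher in replicate 2 was 6, and 5 to 9 over 8 alternatives. The median difference, 1.13, was 0.99 with TMM-scaled counts, 1.49 with a pseudocount of 0.1 and 0.97 after taking off GC-decile medians; the cause was not tested. Over the other 4 scales it was 1.01 to 1.19, and the mean in its place was 1.09. No gene's difference changed sign under any of 7 scales tried. Intervals were apart for 10 genes on the TPM and on the FPKM scale. The posterior mean isoform percentage moved the leading share by more than 1 SD for 3 of the 10 genes. No paired analysis was possible because there is 1 group. S100a4 and Actg2 rest on 10 to 119 counts, which limits their levels and transcript shares.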

Other observations

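Genes tied to the epithelial or the mesenchymal state, as a list of 10, were 7 higher and 3 lower in replicate 2. The epithelial adhesion genes Epcam and Cdh1, for E-cadherin, were lower in replicate 2, at 62.4 and 31.4 TPM and at 81.8 and 59.0 TPM. Cdh2, for N-cadherin, was at 2.29 and 6.96 TPM, the only one of the 10 that was at least 2-fold higher in log2(TPM + 1). The transcription factor genes Snai1 (0.27 and 0.79 TPM), Twist1 (0.51 and 1.59 TPM) and Zeb2 (0.8 and 2.44 TPM) were higher in replicate 2 at low levels, while Zeb1 (1.93 and 2.35 TPM) and Snai2 (0.12 and 0.19 TPM) differed less. Fn1, for fibronectin, stood at 154.1 and 122.2 TPM, lower in replicate 2 where Vim was higher. With TMM-scaled counts 2 were at least 2-fold higher, Cdh2 and Zeb2, and 1 lower, Epcam at -1.29. With a pseudocount of 0.1, an alternative added after seeing the data, 4 were higher and 0 lower. Of the 11382 genes, 3.24% were 2-fold higher by TPM and 6.8% with a pseudocount of 0.1. With TMM-scaled counts 201 of the 11382 were higher and 318 lower. No test between 1 library and 1 library was possible.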
